A study of Mus musculus with 6 samples.

Results

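Among the circular RNAs of these brain libraries, 298 of 11824 made up the set described here: less abundant circular RNAs whose levels did not overlap between mice given AVE0991 and mice given saline and whose group means differed at least 2-fold. They were chosen from the deposited counts. Each circular RNA was expressed as CPM, its counts per 1000000 circular RNA counts of its library, and the 300 with the highest mean in the saline libraries were set aside. Of the remainder, 7581 had 100 or more counts over the 6 libraries and 3943 did not. Of the 7581, 114 (1.5%) were higher in AVE0991 and 184 (2.43%) were lower with no overlap and a ratio of group means, after adding 0.5 CPM to each mean, of at least 2, which together is 3.93%. Because these same values chose the members, their differences between the groups are given as a description and without a test.

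All 6 libraries came from brain of 8-month-old APP/PS1 mice, a transgenic line that overproduces amyloid beta and forms plaques in the brain. 3 libraries came from mice injected intraperitoneally each day for 30 days with sterile saline (vehicle), and 3 from mice injected on the same schedule with AVE0991 at 10 mg per kg. AVE0991 is a synthetic agonist of Mas, the receptor of angiotensin-(1-7). Adult astrocytes are named as the source of the RNA. Nothing in the labels ties a library to an animal of its own, so the spread between libraries, and any p-value that rests on it, may be technical.

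Circular RNAs form by back-splicing, in which a downstream donor splice site of a gene is joined to an upstream acceptor site. The closed product has no free ends, resists exonucleases and can outlive the linear transcript of the same gene. Brain is rich in circular RNAs, many of which come from genes with neuronal functions. The files name each circular RNA by a circBase-style identifier and do not pair any identifier with a host gene, a position or a sequence, so the members have no gene names here and 4 identifiers are printed, 2 per direction.

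Circular RNA rows held 1424780 to 1581448 counts per library. They made up 2.93% ± 0.162 of all counts in vehicle and 3.04% ± 0.228 in AVE0991 libraries (SD, n = 3 each), a difference within the spread between replicates (two-sided exact permutation p = 0.5, where the smallest possible is 0.1). Every listed circular RNA count was either 0 or at least 10, and 10 counts correspond to 6.32 to 7.02 CPM. A circular RNA listed at 0 may therefore have had up to 9 counts. On gene rows, all 10 astrocyte markers were detected, with a summed level of 5774 to 7141 CPM of gene counts in vehicle, 6539 CPM in AVE0991 replicate 1, and 7579 and 8060 CPM in replicates 2 and 3. In the latter pair, 7 of the 10 were above all other 4 libraries and 1 was below them. That 1 was Slc1a2, at 2637 and 2878 CPM, against 3019 to 4307 CPM in the other 4. The 9 neuron markers summed to 4853 to 5690 CPM in vehicle, 5011 CPM in AVE0991 replicate 1, and 4529 and 4598 CPM in replicates 2 and 3. In that pair, 3 of the 9 were below all other 4 libraries and 1 was above them. The 6 mature oligodendrocyte markers summed to 3609, 7773 and 7876 CPM in vehicle replicates 1, 2 and 3. In AVE0991 replicates 1, 2 and 3 they summed to 5470, 11782 and 5851 CPM. RNA of neurons and oligodendrocytes was thus plentiful throughout, at levels that differed between libraries. In bulk RNA, fewer cells of a type and less RNA per cell cannot be told apart.

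AVE0991 replicates 2 and 3 stood apart from the other 4 libraries in genes of cerebellar granule cells, the small excitatory neurons of the cerebellum. The 10 markers of that cell type, among them Gabra6, Cbln3 and Neurod1, summed to 305 to 353 CPM in vehicle, 339 CPM in AVE0991 replicate 1, and 2624 and 2671 CPM in replicates 2 and 3. All 10 were higher in both replicates than in any of the other 4 libraries, and none was under 1 CPM throughout. The 8 markers of striatal projection neurons, such as Drd1 and Drd2, summed to 503 to 1106 CPM in vehicle, 1378 CPM in AVE0991 replicate 1, and 388 and 408 CPM in replicates 2 and 3. In both of the latter, 5 of the 8 were lower than in any of the other 4 libraries. Drd2 was not 1 of the 5, at 12.8 CPM in AVE0991 replicate 2 and 12.5 CPM in vehicle replicate 1. The part of cerebellar, striatal, astrocyte, other neuron and oligodendrocyte transcripts in the levels of the members was not tested.

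The member with the largest ratio among those higher in AVE0991 was mmu_circ_0015181. It was listed at 0 in the 3 vehicle libraries, and at 12, 103 and 132 counts in AVE0991 replicates 1, 2 and 3, or 7.90, 72.3 and 83.5 CPM. With 9 counts put in place of each 0, it was at least 8.11-fold higher in the AVE0991 mean. Replicate 1 stood barely above the smallest count that the table lists, and the 2 other AVE0991 libraries were close to each other.

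The higher member with the highest mean over the 6 libraries was mmu_circ_0012924, at 484, 423 and 450 CPM in vehicle replicates 1, 2 and 3. AVE0991 replicates 1, 2 and 3 stood at 573, 1132 and 1480 CPM. Its group means were 452 ± 30.7 and 1062 ± 457 CPM (SD, n = 3 each), a ratio of 2.35. AVE0991 replicate 1 lay closer to the vehicle libraries than to either of the other AVE0991 libraries, and its own ratio to the vehicle mean was 1.27. The vehicle mean of mmu_circ_0012924 lay under 469 CPM, the lowest among the 300 set aside. With the 300 dropped by the mean over the 6 libraries instead, 112 of the 114 higher members were kept. This member, with the highest such mean, was not among them.

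Among the members lower in AVE0991, mmu_circ_0007969 had the largest ratio. It stood at 78, 18 and 26 counts in vehicle replicates 1, 2 and 3, which is 54.4, 12.6 and 18.1 CPM, and was listed at 0 in all 3 AVE0991 libraries. With 9 counts in place of each 0 it was at least 4.46-fold lower in the AVE0991 mean. Vehicle replicate 1 was the high library, and without it the bound was at least 2.45-fold lower.

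The most abundant lower member was mmu_circ_0008479, with 385, 430 and 431 CPM in the 3 vehicle libraries, against 236, 166 and 206 CPM in AVE0991 replicates 1, 2 and 3. The group means were 415 ± 26.4 and 202 ± 35.5 CPM (SD, n = 3 each), so it was 2.05-fold lower. All AVE0991 libraries lay well under the vehicle libraries, and the counts behind them ran from 236 to 618 per library.

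**Figure D1:**
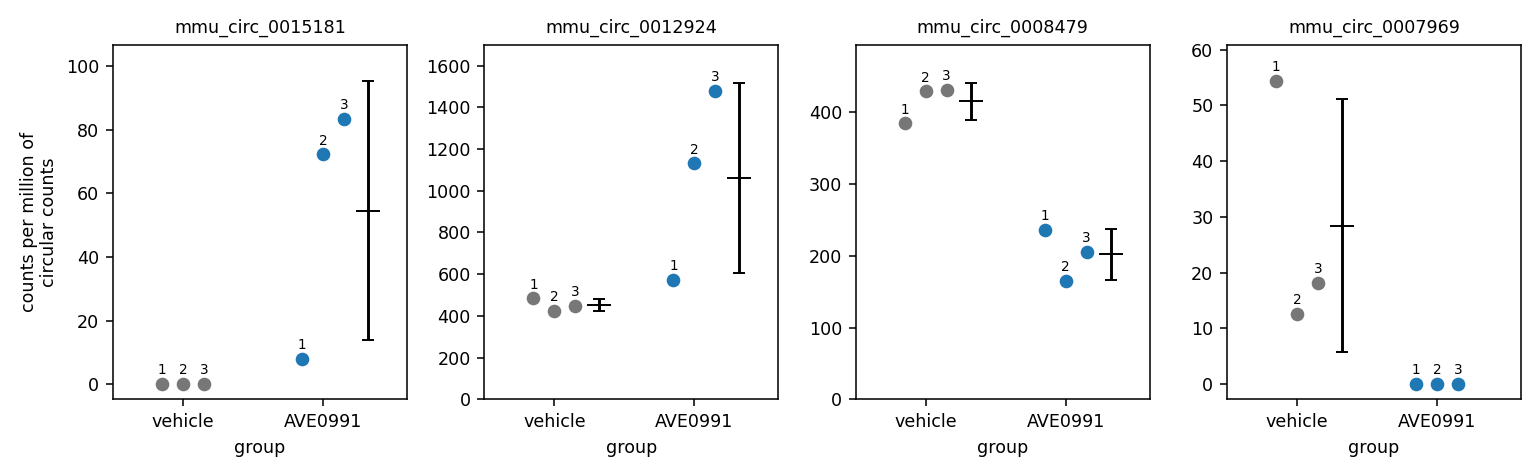
Level of 4 circular RNAs in each library, in CPM of circular counts on a linear axis that differs between panels; points are libraries with their replicate number, and the bar beside a group is its mean ± SD where no library is listed at 0. In both higher members AVE0991 replicate 1 (7.90 and 573 CPM) is the lowest AVE0991 library, whereas mmu_circ_0008479 is between 166 and 236 CPM in all of them.

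The ratio of group means had a median of 2.5 in the 114 higher members, with quartiles of 2.22 and 3.25, and 57 of them lay under 2.5. The 184 lower members had a median of 2.28-fold, with quartiles of 2.13 and 2.71, and 118 lay under 2.5-fold. A ratio of at least 4 was reached by 19 higher members, and a level at least 4-fold lower by 7 lower members. At least 1 library was listed at 0 in 14 of those 19 and in all 7, so most of the large ratios rest on a listed zero.

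Zeros were listed in at least 1 library for 33 of the higher and 53 of the lower members. Of the higher members 3 were at 0 in every vehicle library, with bounds of at least 3.65-fold to at least 8.11-fold, and of the lower members 1 was at 0 in every AVE0991 library. With each listed 0 taken as 9 counts, 108 of the 114 and 168 of the 184 still met every condition, and the median ratios were 2.41 and 2.23-fold. Among members with no listed zero, the largest ratio was 8.37 in the higher and 3.82-fold in the lower direction.

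Just inside the threshold, the 3 higher members with the smallest ratios had 2.001, 2.005 and 2.008, and the 3 nearest circular RNAs outside it had 1.989, 1.983 and 1.977. In the lower direction the corresponding values were 2.0003, 2.008 and 2.013-fold inside and 1.9965, 1.9962 and 1.992-fold outside. The values thus run on across the threshold without a gap. Without the ratio, no overlap alone held for 473 (6.24%) in the higher and 966 (12.7%) in the lower direction, so the ratio removed most of them in both.

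The members spanned means over the 6 libraries of 11.2 to 757 CPM in the higher and 11.6 to 309 CPM in the lower direction, with medians of 27.6 and 26.4 CPM. No member had a vehicle mean above those of the 300 set aside, of which the lowest was 469 CPM. That limit capped the means of the lower members more tightly than those of the higher ones. The upper ends are therefore not comparable. The 7283 circular RNAs that passed the count minimum without being kept had a median of 44.3 CPM. Of circular RNAs with 100 to 199 counts over the 6 libraries, 3.92% were lower members and 2.31% higher members. At 800 or more counts these shares were 0.926% and 1.23%. No overlap in the lower direction, in contrast, held for 10.5% of the 1990 with 100 to 199 counts and for 14% of the 1944 with 800 or more. The share past the ratio thus fell with the count in the lower direction, while the share without overlap rose. Of the 300 most abundant circular RNAs that were set aside, 24 (8%) lay higher and 40 (13.3%) lower without overlap, and 0 (0%) and 7 (2.33%) also passed the ratio.

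The 3 AVE0991 libraries did not contribute equally. Higher members had a median log2 ratio to the vehicle mean of 0.59 in AVE0991 replicate 1, against 1.56 in replicate 2 and 1.72 in replicate 3, or 1.51-fold, 2.95-fold and 3.30-fold. AVE0991 replicate 1 was the lowest AVE0991 library for 103 of the 114, or 90.4%, and for 28.1% of the circular RNAs that were not kept. AVE0991 replicate 1 reached at least 2 times the vehicle mean in 30 of the 114 (0.884% of all 7581), replicate 2 in 104 (6.19% of all) and replicate 3 in 105 (7.11% of all).

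In AVE0991 replicate 1, lower members had a median of -0.88 on the same log2 scale, in replicate 2 of -1.65 and in replicate 3 of -1.33, or 1.84-fold, 3.15-fold and 2.51-fold lower. Replicate 2 was the lowest AVE0991 library for 105 of the 184, or 57.1%, against 35% of those not kept. At most 0.5 times the vehicle mean was reached by 76 of the 184 in replicate 1 (2.64% of all 7581), by 146 in replicate 2 (13.2% of all) and by 140 in replicate 3 (8.68% of all). A level past 2-fold in all 3 AVE0991 libraries was found in 23 of the 114 higher and 36 of the 184 lower members. Over all 7581, it was found in 26 in the higher and 38 in the lower direction. Most members thus passed 2-fold in only some of the AVE0991 libraries.

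**Figure D2:**
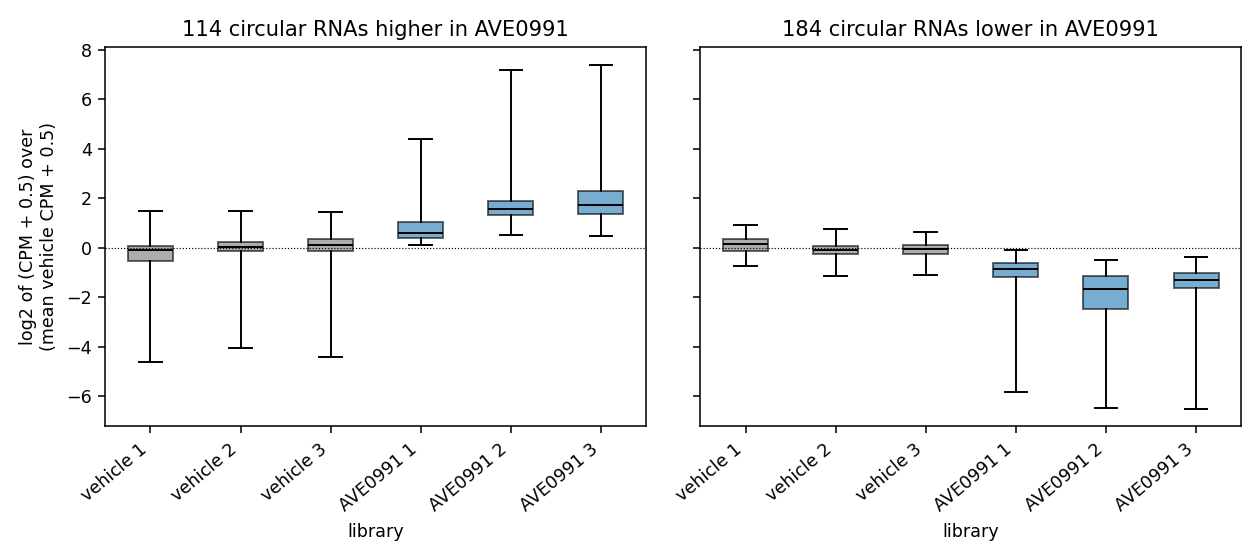
Log2 ratio of each library to the mean of the vehicle libraries (0.5 CPM added to both) for the 114 higher and the 184 lower circular RNAs; boxes span the quartiles with the median, whiskers the lowest and highest member, grey is vehicle and blue AVE0991. Medians of the higher members are 0.59, 1.56 and 1.72 in AVE0991 replicates 1, 2 and 3, and those of the lower members -0.88, -1.65 and -1.33.

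Member by member, the mean of AVE0991 replicates 2 and 3 lay farther from the vehicle mean than replicate 1 in 108 of the 114 higher and 140 of the 184 lower members. The same was not counted for the circular RNAs that were not kept. The gap was plain in 2 higher members, the fifth and the seventh by ratio. The first had 20.9, 20.4 and 18.1 CPM in the vehicle libraries and 24.4, 223 and 261 CPM in AVE0991 replicates 1, 2 and 3. The second had 128, 108 and 72.6 CPM in the vehicle libraries and 132, 990 and 1282 CPM in AVE0991. In both, replicate 1 was just above the highest vehicle library.

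**Figure D3:**
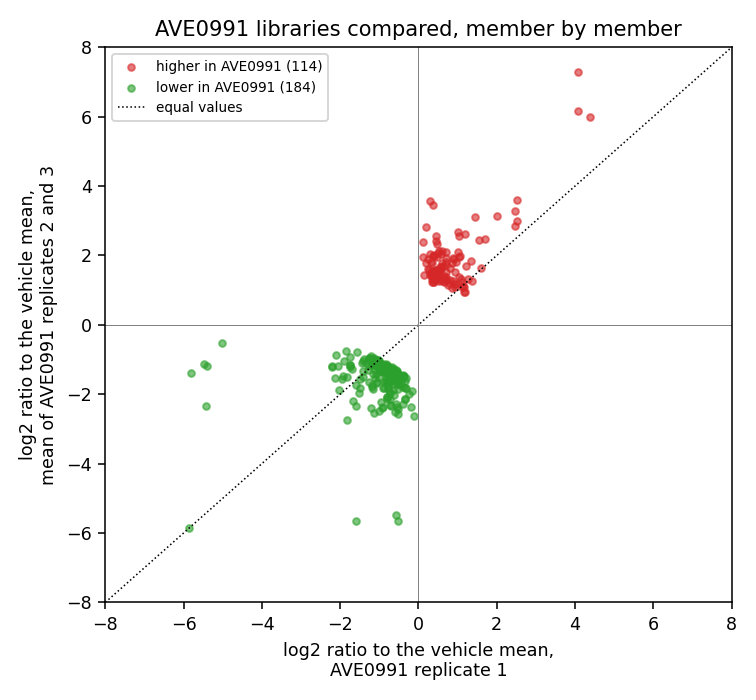
Log2 ratio to the vehicle mean of each member in AVE0991 replicate 1 (horizontal) and in the mean of AVE0991 replicates 2 and 3 (vertical), red for the 114 higher and green for the 184 lower circular RNAs; the dotted line marks equal values. Of the higher members 108 lie above the line, and of the lower members 140 lie below it.

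Summed over the 114 higher members, the level was 3930, 4281 and 4597 CPM in vehicle and 6051, 12839 and 15990 CPM in AVE0991 replicates 1, 2 and 3. Their share of all circular counts thus ran from 0.393% to 0.46% in vehicle libraries and was 0.605%, 1.28% and 1.6% in the AVE0991 libraries. The 184 lower members summed to 13152, 10626 and 10567 CPM in the vehicle libraries and to 6090, 3705 and 4695 CPM after AVE0991. Vehicle and AVE0991 libraries differed in opposite directions for the 2 lists, as the rule requires. Vehicle replicate 1 was the highest vehicle library for 95 of the 184 lower members, or 51.6%, and for 31% of the circular RNAs not kept.

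**Figure D4:**
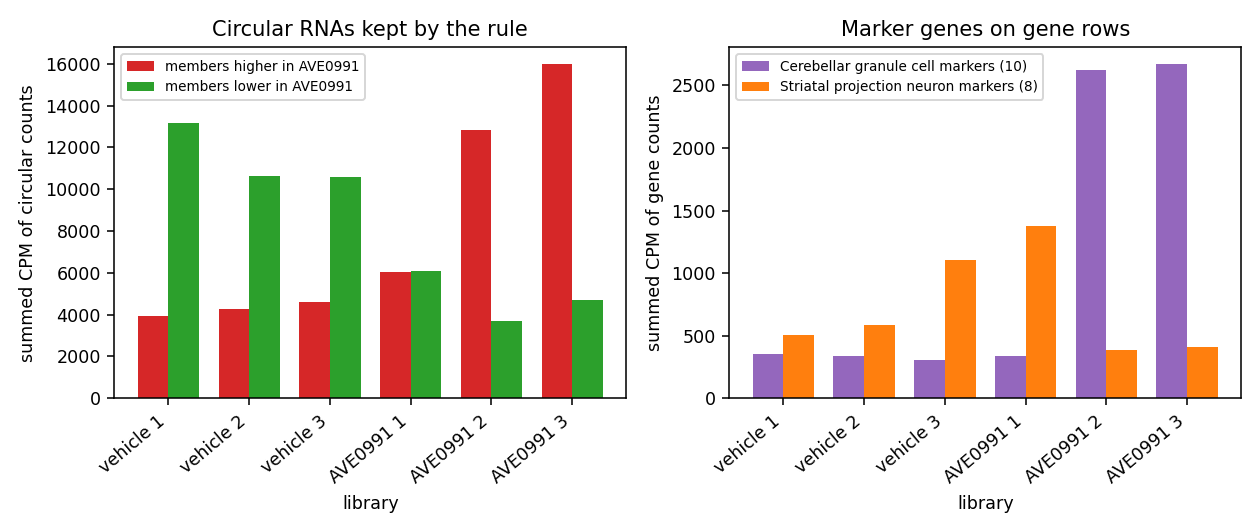
Left, summed level of the higher (red) and lower (green) circular RNAs in each library, in CPM of circular counts; right, summed level of 10 cerebellar granule cell and 8 striatal projection neuron marker genes, in CPM of gene counts. The higher members and the granule cell markers are both highest in AVE0991 replicates 2 and 3, at 12839 and 15990 CPM and at 2624 and 2671 CPM.

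Without AVE0991 replicates 2 and 3 the same conditions kept 18 circular RNAs in the higher and 139 in the lower direction, of which 2 and 69 were members. Without AVE0991 replicate 1 they kept 403 and 462, including 96 and 161 members. Leaving out a library makes no overlap easier to meet, so the numbers kept are not comparable as such. The ratio alone, computed on the values that chose the members, stayed past 2 in 112 higher and 170 lower members without AVE0991 replicate 1. It did so in 92 and 110 without replicate 2 and in 88 and 141 without replicate 3. Without AVE0991 replicates 2 and 3 together the ratio stayed past 2 in 30 higher and 76 lower members. Without vehicle replicate 3 the rule kept 185 higher, and without AVE0991 replicate 3 74 higher.

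The balance of directions depended on how libraries were scaled. Under CPM of circular counts 38.3% of the members were higher, while TMM factors gave 153 higher and 133 lower (53.5% higher) and DESeq2 size factors 158 and 129 (55.1%). Scaling by the totals of gene rows gave 143 and 147 (49.3%). All 114 higher members were among the 153 kept under TMM, and 133 of the 184 lower members were kept. The ratio stayed past 2-fold under TMM in 114 higher and 143 lower members. The median log2 ratio of the 7581 was -0.09 under CPM and -0.01 under TMM.

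Spread within a group was wider among members than among the circular RNAs not kept. The median coefficient of variation of the higher members was 22.7% over vehicle and 39.9% over AVE0991 libraries, and that of the lower members 21.1% and 40.1%. Circular RNAs that were not kept had 18.3% and 25.1%. The wider spread was in the AVE0991 libraries for both directions. Members also had lower means than those not kept, with medians of 27.6 and 26.4 against 44.3 CPM. Of the lower members, 6 were listed at 0 in AVE0991 replicate 1, 39 in replicate 2 and 14 in replicate 3. The part of low counts and listed zeros in the spread was not tested, and the same values chose the members.

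In the authors' deposited table of DESeq2 results for the same libraries, a q-value under 0.05 was given for 54 of the 114 higher members (1.7% of all 7581 had such a q and a positive fold change). Of the 184 lower members 48 had one in the authors' deposited table (0.923% of all had such a q and a negative fold change). The authors' deposited table gave median log2 fold changes of 1.45 and -1.13 for the 2 groups of members. These values rest on the counts that chose the members and add no separate evidence.

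The share with a member at a neighbouring identifier number was larger among members of the same direction than among other circular RNAs. Most members had no such neighbour. Of 90 higher members whose preceding or following number also passed the count minimum, 14 (15.6%) had a higher member there, against 123 of 5648 other circular RNAs (2.18%). Of 134 such lower members, 33 (24.6%) had a lower member as a neighbour, against 142 of 5604 others (2.53%). A neighbour in the opposite direction occurred for 1 member in each direction. The files do not say what neighbouring numbers share.

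Genes that act on circular RNAs were read from gene rows, a readout that did not choose the members. Of 39 genes known for roles in circular RNA formation, export or decay, 38 were measured, and 0 were called by edgeR over all 20363 genes at an adjusted p under 0.05, where 0.0344% of all genes were called higher and 0.83% lower. At an unadjusted p under 0.05 there were 2 higher and 7 lower among the 38, where 23.6% of all genes had such a p. DESeq2 called 1 higher and 2 lower, where 5.98% of all 33731 genes with any count were called in either direction. Those 33731 include genes too low for the edgeR filter, which all 38 passed, so that share is not over like genes. Both counts are near the share over all genes. The list had a median log2 fold change of -0.0103, beside -0.00691 for all genes, with 19 members above and 19 below 0.

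Among formation factors, Qk encodes the Quaking protein, which binds introns beside circularised exons. Its level was 393, 417 and 521 CPM of gene counts in the vehicle libraries and 308, 411 and 327 CPM after AVE0991, so the groups overlapped (log2 fold change -0.35, SE 0.16, edgeR adjusted p = 0.247). After a correction for GC content its log2 fold change was 0.02. Of the factors that limit back-splicing at paired repeats, the RNA editor Adar had a log2 fold change of 0.01 (SE 0.13) and the helicase Dhx9 one of -0.19 (SE 0.09), with edgeR adjusted p of 0.978 and 0.257.

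The 3 genes of the list with the smallest p, picked after their values were seen, were G3bp2, Upf1 and Sf3b1. G3bp2, a stress granule protein, had 202 ± 10.6 CPM with vehicle and 146 ± 14.2 CPM with AVE0991 (SD, n = 3 each), with no overlap (log2 fold change -0.47, SE 0.11, edgeR adjusted p = 0.0948). Upf1, an RNA helicase of transcript decay, went from 126 ± 1.94 CPM with vehicle to 159 ± 6.29 CPM with AVE0991 (0.34 on the log2 scale, SE 0.09, edgeR adjusted p = 0.107). Sf3b1, a spliceosome subunit, had 152 ± 6.0 CPM with vehicle and 118 ± 10.1 CPM with AVE0991 (log2 -0.37, SE 0.10, edgeR adjusted p = 0.119). After a correction for GC content the values were -0.22, 0.13 and -0.06, so that of Sf3b1 was close to 0.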

How the data were processed

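RNA depleted of ribosomal RNA was sequenced in 6 libraries. The submitters' processing notes name HISAT and the build mm9. The counting program, its version and strand setting are not given in the sources used. The deposited estimated counts were fractional on some gene rows and whole on circular RNA rows, where no value from 1 to 9 occurred. Beside them stood the authors' own normalized values, which on circular rows were the count divided by 1 constant per library. All per-sample columns belonged to these 6 libraries, and 0 others were present. The authors' deposited comparison gave log2 fold changes and p- and q-values, per the file headers from DESeq2. Host genes, positions, sequences and GC content of the circular RNAs are not analysed here.

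The members and gene lists were chosen with earlier results of these data known. Identifiers were printed for the member with the largest ratio and the one with the highest mean in each direction; the planned naming by host gene, for the 10 largest ratios and by shared host, could not be applied. Calculations used Python 3.11.15 with numpy 2.4.6 and pandas 2.3.3. Estimated counts of gene rows were rounded and tested in R 4.3.3 with edgeR 4.0.16 (filterByExpr, TMM, robust quasi-likelihood F test, Benjamini-Hochberg adjustment over 20363 genes, called under 0.05) and, as an alternative, DESeq2 1.42.0. Standard errors were derived from the fold change and its F statistic. In simulated counts for 19979 genes of this comparison the edgeR test recovered 33.3% of genes changed by a log2 of 1 and 85.1% of those changed by 2, and 16 of 129 calls were false. GC content was that of the longest GENCODE M21 transcript. Other scalings, count minimums, added values, thresholds, tools and left-out libraries were tried as alternatives.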

Additional observations from a re-analysis of the deposited data

How the results depend on the processing

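The number of circular RNAs kept, 114 higher and 184 lower, changed with the count minimum (180 and 288 at 50 counts, 68 and 106 at 200) and with a ratio of at least 3 (39 and 27). Without single libraries it ran from 74 to 403 higher and from 143 to 462 lower. Among 4 settings chosen after seeing the data, leaving out AVE0991 replicates 2 and 3 together kept 18 and 139, and leaving out AVE0991 replicate 1 and vehicle replicate 1 together kept 360 and 396. The other 2 of these 4, the authors' deposited values and zeros at 9 counts, kept 108 and 189 and 108 and 168. With 0.1 or 2 added or another way of dropping the 300, 104 to 117 higher and 156 to 190 lower were kept. The 4 printed circular RNAs kept their direction under TMM, gene totals and each left-out library, but not always a ratio past 2. The ratio of mmu_circ_0008479, 0.488, was 0.516 under TMM, 0.51 under gene totals and 0.533 without AVE0991 replicate 2. That of mmu_circ_0012924, 2.35, was 1.89 without AVE0991 replicate 3 and 1.27 without AVE0991 replicates 2 and 3.

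Of all gene rows, edgeR called 7 higher and 169 lower. DESeq2 called 834 and 1183, and edgeR without a filter 58 and 379. With a GC correction edgeR called 1 and 1, and in 1 fit of gene and circular rows 1 and 1. The numbers ran from 0 to 1386 higher and 0 to 995 lower without single libraries, and were 0 and 0 without AVE0991 replicates 2 and 3, where 2833 genes had an unadjusted p under 0.05. The replicate block left 0 and 0 calls, with 3937 genes at an unadjusted p under 0.05. The labels give no pairing beyond the shared number, and the correlations of same-numbered libraries were -0.02, 0.09 and -0.35. Those of differently numbered libraries ran from -0.32 to 0.39. With so few libraries, these correlations cannot show whether same-numbered libraries share more than a number. Genes acting on circular RNAs had 1 higher and 2 lower calls with DESeq2, and 0 to 2 calls in each direction without single libraries; the 2 and 2 came without AVE0991 replicate 1. The difference in circular share, 0.113 percentage points, ran from -0.0172 (without AVE0991 replicate 3) to 0.206 (without vehicle replicate 1). Tests of host genes and of their median, also planned, were not run, because no host gene is paired. The number of libraries and the gap below 10 counts limit the precision for members near the count minimum.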

Other observations

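Small circular RNA counts favoured even numbers. Of the 12636 listed values from 10 to 19, 7038 were even, or 55.7% (95% exact binomial interval 54.8% to 56.6%, which covers counting error only), with 53.5% to 56.7% in single libraries. That span begins at an even number and values grew rarer with size, to 841 at 19, which by itself raises the even share. How much of the share comes from this was not tested. The value 10 occurred 1811 times, 11 occurred 1425 times, 12 occurred 1567 times and 13 occurred 1234 times, so that odd values were rarer than both even neighbours. How circular reads were counted is not given in the sources.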
